A study of Homo sapiens with 16 samples.

Results

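The 34 genes described here encode the folding machinery of the endoplasmic reticulum (ER), the machinery that removes misfolded proteins from it, and the sensors and regulator of the unfolded protein response. They were listed by name, by their roles in these processes, with earlier results of these data known. They were measured among 56865 genes in 16 libraries of poly(A) RNA. All 34 passed the filter on low counts, among 15687 genes that did. The cells were NCI-H1299, established from a lung carcinoma of the non-small cell kind and labelled p53-null, and a stable derivative of it labelled p53-Y220C, which carries a structurally destabilised form of the tumour suppressor p53. Each line was given either the vehicle DMSO or 10 µM MS78, a molecule designed to recruit p300/CBP, which acetylate proteins, to this mutant p53; exposure was 24 h, with 4 libraries in each of the 4 groups, which are named by line and treatment (Null DMSO, for example). Only the p53-Y220C line was grown with G418, at 500 µg/mL, so line, transgene and G418 cannot be told apart, and the labels do not say whether the stable line is a single clone. The labels do not say that replicates were separate cultures either, so the spread behind each p-value may be technical.

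The ER folds secreted and membrane proteins with the help of chaperones, which hold unfolded chains, and of disulfide isomerases, which form and rearrange disulfide bonds. Chains that fail to fold are passed back to the cytosol and degraded, a process called ER-associated degradation (ERAD). When unfolded proteins build up, the membrane sensors IRE1 (gene ERN1), PERK (EIF2AK3) and ATF6 signal to the nucleus: IRE1 cuts an intron out of XBP1 mRNA so that the active factor XBP1s is made, ATF6 is cleaved to release a transcription factor, and PERK slows translation and raises ATF4. ATF6 is best known for inducing chaperones, and XBP1s for inducing ERAD and secretory pathway genes, although the arms share many targets.

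Total estimated reads were 20317427 to 27746943 per library. KRT8 and KRT18, keratins of carcinoma cells, were at 166 to 350.3 and 287 to 495 CPM (counts per 1e6 of the scaled library total), and VIM, a mesenchymal filament, at 3526 to 5611 CPM, while the epithelial markers KRT19, EPCAM and CDH1 did not exceed 2.58 CPM. Of 9 leukocyte markers, PTPRC (the antigen CD45), CD3E, CD3D, NKG7, GZMB, GNLY and CD52 were read together in 8 libraries. These were, in both lines, the first DMSO replicate and every MS78 replicate but the first. They are called the libraries with PTPRC reads. PTPRC had 55 to 99 reads there and 0 or 1 in the other 8. The 9 markers summed to 43.7 to 96.9 CPM there, against 2.21 to 11.8 CPM in the others. The remaining markers, LAPTM5 and CORO1A, had reads in every library. Plasma cells have a large ER, and their 4 markers summed to at most 0.472 CPM in any library, with TNFRSF17 at 0 reads throughout. The part of leukocyte RNA in the results was not tested as such, but a term for PTPRC reads was added to the fit as an alternative. Its counts are given in the closing section. Values are also given for the libraries with PTPRC reads alone and for the others alone. In each line the first set holds 1 DMSO and 3 MS78 libraries and the other set 3 DMSO and 1 MS78. Every test of MS78 within a set therefore has an arm of 1 library, which the fit assumes to vary like the other groups, and the lines under DMSO are compared as 1 library against 1 in the first set and 3 against 3 in the other. In bulk RNA, a change in the number of cells of a type and a change in RNA per cell cannot be told apart.

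MS78 in p53-Y220C cells was followed by higher levels of most of the 34 genes. Of them, 28 rose, ATF6B fell and 5 (MANF, DERL3, OS9, ERN1 and ATF6) did not pass the test, at an adjusted p under 0.05 in edgeR's quasi-likelihood test. Over all genes tested, 24.9% rose and 23.6% fell. The median log2 fold change of the 34 was 0.47, and that of all genes tested was -0.01. With upper-quartile scaling, higher genes were 38.7% of all calls in place of 51.4%, and 26 of the 34 still rose. Together the 34 genes took 0.643% to 0.653% of the reads of a Y220C DMSO library and 1.02% to 1.05% of those of a Y220C MS78 library. In p53-null cells the same share was 0.726% to 0.765% under DMSO and 0.728% to 0.771% under MS78, and these ranges overlapped. All 28 genes that rose had a positive log2 fold change in both of these sets, each with a single library in 1 arm. EDEM2 and WFS1 lost the call when single libraries were left out (adjusted p up to 0.118 and 0.0765).

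**Figure D1:**
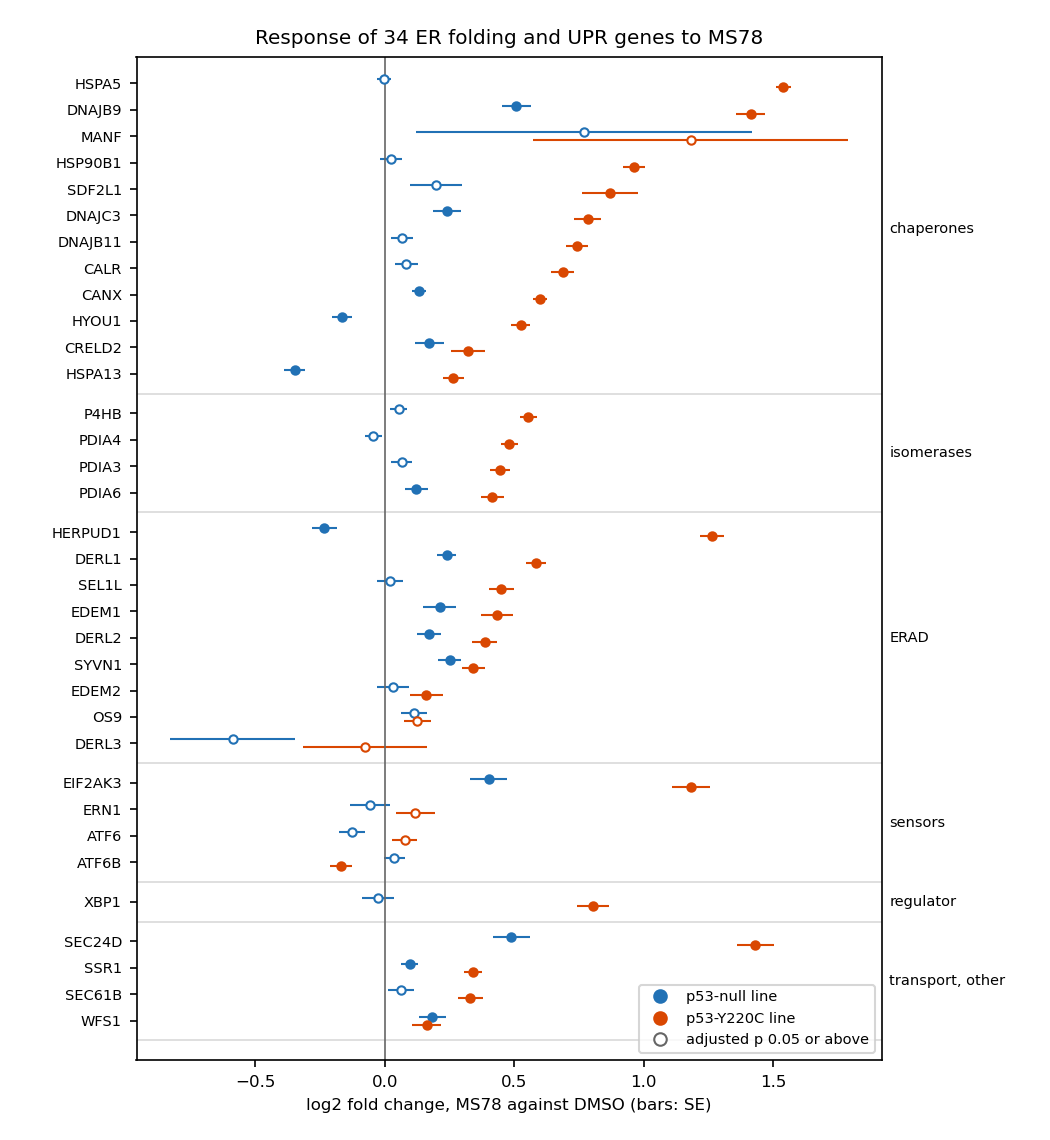
Log2 fold change of the 34 genes under MS78 against DMSO (x axis; bars are SE) in p53-null and p53-Y220C cells, with genes (y axis) grouped by role; filled points had an adjusted p under 0.05, n = 4 libraries per group. In p53-Y220C cells most points lie to the right of zero, with HSPA5 farthest at 1.54, and in p53-null cells most lie near zero.

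Among the 12 chaperones and co-chaperones, 11 rose in p53-Y220C cells, with a median log2 fold change of 0.76. HSPA5 (ENSG00000044574, chromosome 9, 125234853 to 125241330, minus strand, GRCh38) encodes BiP, the main ER chaperone of the HSP70 family, which also restrains the sensors. In replicate order it was at 972, 933, 968 and 952 CPM in Y220C DMSO and at 2794, 2735, 2842 and 2743 CPM in Y220C MS78. Every treated library lay far above every vehicle library, a 2.91-fold difference (log2 1.54, SE 0.028, adjusted p = 4.62e-20), the largest of the 34. Its log2 fold change was 1.52 in the libraries with PTPRC reads (1 DMSO against 3 MS78) and 1.56 in the others (3 against 1). HSP90B1 (ENSG00000166598, chromosome 12), which encodes the ER HSP90 GRP94, was at 669, 643, 636 and 638 CPM under DMSO and at 1276, 1196, 1274 and 1302 CPM under MS78. The groups were again apart, by 1.95-fold (log2 0.96, SE 0.042, adjusted p = 1.31e-13).

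The co-chaperones that set the HSP70 cycle rose with BiP. DNAJB9 (ENSG00000128590, chromosome 7) encodes ERdj4, a J-domain protein that assists degradation and holds IRE1 inactive. It was at 18.5, 17.1, 18.9 and 18.1 CPM in Y220C DMSO and at 49.9, 49.0, 48.5 and 46.5 CPM in Y220C MS78. No library of either group entered the other's range, and the difference was 2.67-fold (log2 1.41, SE 0.056, adjusted p = 2.26e-14). The other J-domain genes, DNAJC3 (an inhibitor of the PERK kinase) and DNAJB11 (a BiP partner), rose by log2 0.78 and 0.74, and SDF2L1, which encodes a partner of DNAJB11, by 0.87. HYOU1, the nucleotide exchange factor of BiP, rose from 253 ± 7.13 to 364 ± 5.03 CPM (SD, n = 4), a log2 fold change of 0.53. HSPA13, a microsomal HSP70 relative, and CRELD2, a secreted ER stress protein, rose least, by 0.26 and 0.32. MANF, an ER-resident secreted factor, was read at only 0.0858 to 2.90 CPM in the 16 libraries, and its log2 fold change of 1.18 (SE 0.61, adjusted p = 0.117) did not pass; its coding transcript MANF-204 was listed at 0 reads in 4 libraries.

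The lectin chaperones, which hold glycoproteins by their sugar chains, rose as well. CALR (calreticulin, ENSG00000179218) went from 559 ± 34.6 to 899 ± 18.4 CPM (SD, n = 4), a log2 fold change of 0.69. Its membrane-bound relative CANX (calnexin) went from 905 ± 23.1 to 1371 ± 28.5 CPM, a log2 fold change of 0.60. All 4 disulfide isomerases rose in a narrow band: P4HB by log2 0.55, PDIA4 by 0.48, PDIA3 (the partner of the lectins) by 0.45 and PDIA6 (which acts on BiP clients and on the sensors) by 0.42, with SEs of 0.034 to 0.044.

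Of the 9 ERAD genes, 7 rose in p53-Y220C cells. HERPUD1 (ENSG00000051108, chromosome 16, 56932048 to 56944863, plus strand) encodes a short-lived membrane protein that organises the ubiquitin ligase complex of ERAD. It was at 53.2, 53.6, 54.9 and 56.9 CPM in Y220C DMSO and at 137, 131, 131 and 126 CPM in Y220C MS78. The 2.40-fold difference (log2 1.26, SE 0.046, adjusted p = 6.64e-15) was more than double any other in this list on the log2 scale. DERL1, a channel component, followed at 0.58, then the ligase's adaptor SEL1L at 0.45, the mannosidase-like EDEM1 at 0.43, DERL2 at 0.39 and SYVN1, which encodes the ubiquitin ligase HRD1, at 0.34. EDEM2, which starts mannose trimming, was at 0.16 (adjusted p = 0.0417), and its 4 MS78 libraries overlapped the vehicle libraries. The lectin gene OS9 (0.13, adjusted p = 0.0514) and DERL3 (-0.08, adjusted p = 0.814; 1.015 to 1.85 CPM in the p53-Y220C libraries) did not pass.

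The 4 genes listed under translocation, transport and other roles were each called higher. SEC24D (ENSG00000150961, chromosome 4) encodes a cargo-binding coat subunit of the vesicles that leave the ER. Its levels were 17.5, 15.5, 18.4 and 19.3 CPM in Y220C DMSO and 46.8, 49.5, 48.1 and 46.6 CPM in Y220C MS78. These ranges were far apart, by 2.70-fold (log2 1.43, SE 0.07, adjusted p = 8.07e-13). SSR1 (a translocon-associated subunit) and SEC61B (a subunit of the translocation channel) rose by log2 0.34 and 0.33. WFS1, an ER membrane protein that restrains ATF6 signalling, was at 0.16 (adjusted p = 0.0207), with overlapping groups.

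The 4 sensor genes did not move as one. EIF2AK3 (ENSG00000172071, chromosome 2) was at 10.2, 9.46, 11.4 and 10.7 CPM in Y220C DMSO and at 21.7, 25.4, 24.1 and 23.6 CPM in Y220C MS78, with no overlap (2.27-fold, log2 1.18, SE 0.073, adjusted p = 2.97e-11). ERN1 (ENSG00000178607, chromosome 17) was at 20.01, 19.3, 20.3 and 21.5 CPM under DMSO and at 20.9, 21.0, 21.4 and 24.9 CPM under MS78, and ATF6 (ENSG00000118217, chromosome 1) at 67.4, 69.9, 73.8 and 75.2 against 74.5, 75.1, 75.0 and 77.3 CPM. Both pairs of groups overlapped, with log2 fold changes of 0.12 (SE 0.074, adjusted p = 0.195) and 0.08 (SE 0.049, adjusted p = 0.205). ATF6B (ENSG00000213676, chromosome 6), the paralog of ATF6, was at 117, 109, 113 and 110.2 CPM under DMSO and at 99.0, 107, 95.5 and 97.5 CPM under MS78. It was the only one of the 34 that fell, by 0.17 on the log2 scale (SE 0.043, adjusted p = 0.00267), and the call was lost with length-scaled TPM. In the libraries without PTPRC reads, with 1 treated library, the log2 fold change was -0.16 (adjusted p = 0.15).

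**Figure D2:**
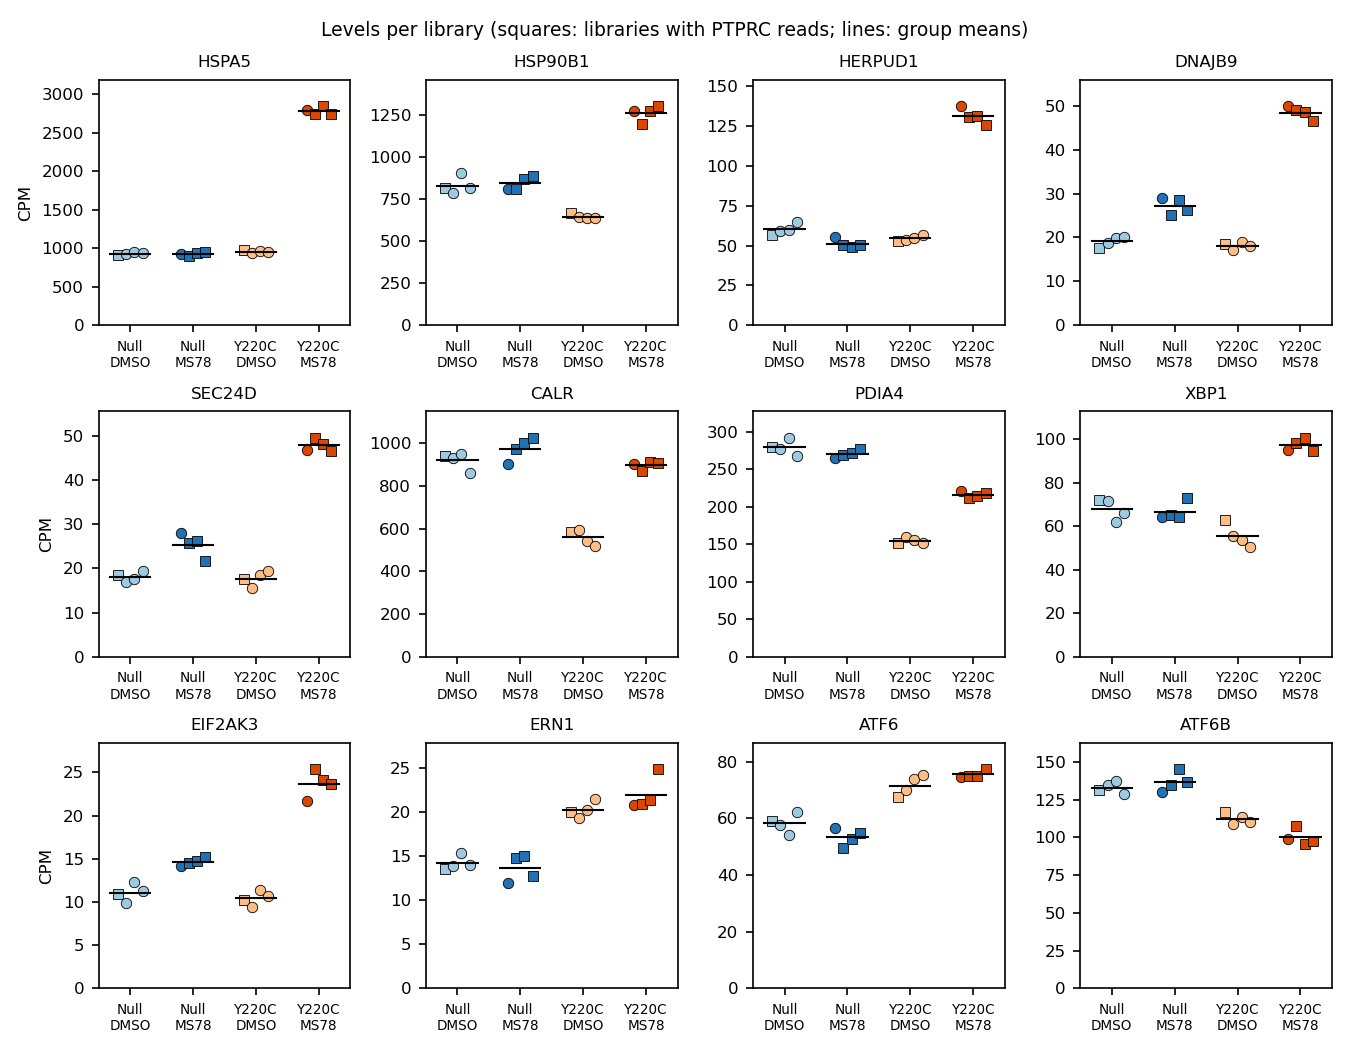
Level of 12 of the genes in CPM (y axes, each starting at 0) in the 16 libraries by group (x axes); points are libraries, squares are libraries with PTPRC reads and lines are group means. HSPA5, HSP90B1, HERPUD1, DNAJB9, SEC24D, XBP1 and EIF2AK3 are highest in all 4 Y220C MS78 libraries, whereas ERN1 and ATF6 differ by line, and CALR and PDIA4 are lowest in Y220C DMSO.

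XBP1 (ENSG00000100219, chromosome 22, 28794555 to 28800597, minus strand), the mRNA that IRE1 cuts, was at 62.6, 55.3, 53.6 and 50.5 CPM in Y220C DMSO and at 95.1, 98.3, 101 and 94.5 CPM in Y220C MS78. The groups did not overlap, and the difference was 1.75-fold (log2 0.81, SE 0.062, adjusted p = 9.87e-10). The transcript tables also separate its spliced and unspliced forms, since 2 annotated transcripts (XBP1-202 and XBP1-207) lack 26 coding bases that 3 others (XBP1-201, XBP1-203 and XBP1-204) carry. The sequences around those bases show the difference that defines the 2 forms. They are given 5′ to 3′ in the direction of transcription (chr22:28796100-28796173, GRCh38), with the bases that IRE1 removes, at 28796124 to 28796149, in capitals.
XBP1 unspliced: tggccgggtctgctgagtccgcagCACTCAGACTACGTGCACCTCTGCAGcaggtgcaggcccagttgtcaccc
XBP1 spliced: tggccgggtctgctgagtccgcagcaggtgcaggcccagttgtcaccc

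The share of XBP1 reads assigned to the spliced transcripts, of spliced plus unspliced, was 20.5%, 27.3%, 25.7% and 20.7% in Y220C MS78. In Y220C DMSO it was 1.88%, 3.76%, 1.21% and 8.85%, so that replicate 4 stood above the rest but far below every treated library. The means were 23.5% ± 3.47 and 3.92% ± 3.45 (SD, n = 4), a difference of 19.6 percentage points (exact two-sided permutation test p = 0.0286, the smallest that 4 against 4 libraries allow, 0.0429 after Benjamini-Hochberg adjustment over 3 comparisons). In p53-null cells the share was 2.36%, 2.38%, 1.84% and 1.90% under DMSO and 0.277%, 1.26%, 1.46% and 1.36% under MS78. These groups did not overlap either, and the difference was -1.03 percentage points (exact two-sided permutation p = 0.0286, adjusted 0.0429). The lines did not differ under DMSO beyond their spread (difference 1.81 percentage points, exact permutation p = 0.4).

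The shares rest on few reads outside Y220C MS78. Spliced transcripts had 380.5 to 546 estimated reads in the Y220C MS78 libraries, 13.6 to 98.9 in Y220C DMSO, 25.8 to 39.2 in Null DMSO and 4.52 to 22.6 in Null MS78. Unspliced transcripts had 1430.3 to 1528 in Y220C MS78 and 1019 to 1415 in Y220C DMSO, so that both forms were higher under MS78 and the spliced form more so. Computed from TPM, the difference was 20.2 percentage points in p53-Y220C cells (exact permutation p = 0.0286, adjusted 0.0857) and -1.30 in p53-null cells (p = 0.114, adjusted 0.171). The division of reads between the forms is the quantifier's estimate and not a count of reads across the junction. The annotated transcripts also differ outside the 26 bases, since the spliced ones are 1131 and 1794 bases long and the unspliced ones 1690 to 1850, and the part of those other differences in the estimate was not tested. In p53-Y220C cells the libraries with PTPRC reads differed by 22.7 percentage points, with 1 DMSO library, and the others by 15.9, with 1 MS78 library.

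**Figure D3:**
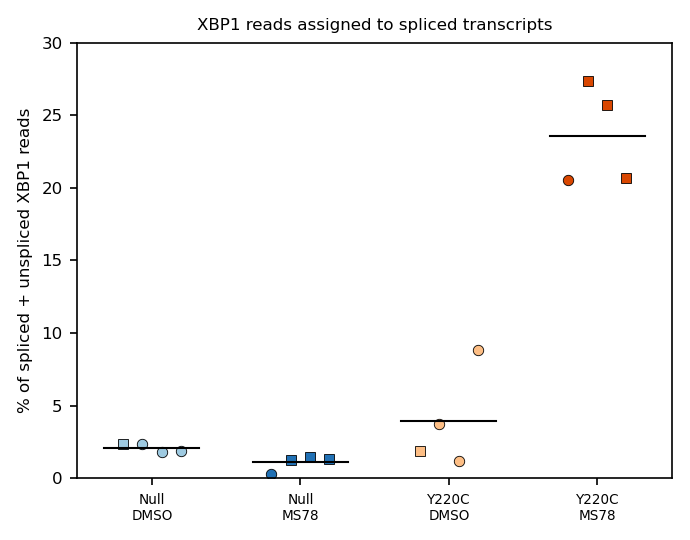
Percentage of spliced plus unspliced XBP1 reads assigned to spliced transcripts (y axis, from 0) in the 16 libraries by group (x axis); points are libraries, squares are those with PTPRC reads and lines are group means. The 4 Y220C MS78 libraries sit between 20.5% and 27.3%, above all other libraries, of which the highest is 8.85%.

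MS78 in p53-null cells was followed by smaller and mixed changes. Of the 34 genes, 13 rose and 3 (HSPA13, HERPUD1 and HYOU1) fell, and the median log2 fold change was 0.08, against 0.01 for all genes tested. Over all genes 14.8% rose and 13.3% fell. No member doubled. Of these 16 calls, 8 passed with length-scaled TPM. In the tests with an arm of 1 library, 7 passed in the set with PTPRC reads and 3 (HSPA13, DNAJB9 and SEC24D) in the other, and all 16 kept their direction. The genes that rose most were DNAJB9, SEC24D and EIF2AK3, while HSPA5 was at 929, 894, 941 and 954 CPM under MS78 and at 909.8, 929, 950.1 and 934 CPM under DMSO, overlapping fully (log2 -0.00, SE 0.028, adjusted p = 0.974). HSP90B1 (0.02, adjusted p = 0.728), CALR (0.08, adjusted p = 0.186) and XBP1 (-0.03, adjusted p = 0.81) did not pass the test either.

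DNAJB9 was at 17.6, 18.8, 19.99 and 20.2 CPM in Null DMSO and at 29.05, 25.1, 28.6 and 26.3 CPM in Null MS78. The 1.42-fold difference (log2 0.51, SE 0.057, adjusted p = 5.71e-07) left the groups apart. SEC24D was at 18.5, 16.9, 17.6 and 19.5 CPM under DMSO and at 27.96, 25.7, 26.1 and 21.7 CPM under MS78, again apart (1.40-fold, log2 0.49, SE 0.072, adjusted p = 2.12e-05). EIF2AK3 was at 10.9, 9.83, 12.3 and 11.3 CPM and at 14.1, 14.5, 14.8 and 15.2 CPM, without overlap (1.32-fold, log2 0.40, SE 0.073, adjusted p = 0.000253). The ERAD genes SYVN1 and DERL1 and the co-chaperone gene DNAJC3 rose by smaller amounts. SYVN1 went from 26.9, 25.3, 28.4 and 25.98 to 30.3, 31.6, 33.6 and 31.3 CPM (log2 0.25, SE 0.045, adjusted p = 0.000244). DERL1 went from 135, 139, 138 and 138 to 163, 155, 165 and 167 CPM (log2 0.24, SE 0.037, adjusted p = 3.87e-05). DNAJC3 went from 28.7, 25.6, 25.7 and 30.1 to 33.9, 31.9, 31.9 and 32.6 CPM (log2 0.24, SE 0.053, adjusted p = 0.00159). None of these 3 pairs of groups overlapped, as the choice of genes required. In the libraries without PTPRC reads, with 1 treated library, none of EIF2AK3, SYVN1, DERL1 and DNAJC3 passed the test, with log2 fold changes of 0.34, 0.19, 0.23 and 0.32.

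HSPA13 (ENSG00000155304, chromosome 21) was at 129, 136, 131 and 138 CPM in Null DMSO and at 109, 99.6, 106 and 105 CPM in Null MS78. It fell by 0.35 on the log2 scale (SE 0.040, adjusted p = 9.96e-07), with no overlap. HERPUD1 was at 56.8, 59.3, 59.7 and 64.8 CPM under DMSO and at 55.1, 50.4, 48.9 and 50.4 CPM under MS78, and HYOU1 at 198, 201, 191 and 179 against 165, 168, 175 and 179 CPM. Both pairs were apart by a small margin, and the genes fell by 0.23 (SE 0.047, adjusted p = 0.000767) and 0.16 (SE 0.038, adjusted p = 0.0026) on the log2 scale. In the libraries without PTPRC reads, with 1 treated library, neither passed the test (adjusted p = 0.36 and 0.17), with log2 fold changes of -0.16 and -0.21. These 2 genes and HSPA13 rose in p53-Y220C cells. Among the sensors, ERN1 was at 13.6, 13.9, 15.4 and 14.0 CPM and at 12.02, 14.8, 15.04 and 12.8 CPM (log2 -0.06, adjusted p = 0.655), and ATF6 at 59.0, 57.8, 54.1 and 62.1 and at 56.7, 49.6, 52.7 and 54.9 CPM (-0.13, adjusted p = 0.0637), with overlap in both. ATF6B was at 131, 134, 137 and 129 CPM and at 129.8, 135, 145 and 136 CPM, also overlapping (0.04, adjusted p = 0.562). PDIA6, CRELD2, EDEM1, WFS1 and SSR1, which rose by log2 0.10 to 0.21, each lost the call when single libraries were left out in turn, with adjusted p-values then up to 0.126.

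The responses of the lines were set against each other by the interaction of line and treatment in the same fit. Of the 34 genes, 24 responded more positively in p53-Y220C cells and ATF6B less so, where 14.4% and 12.4% of all genes tested did, and the median difference was 0.45 on the log2 scale. With upper-quartile scaling the positive share of all calls was 37.4% in place of 53.8%, and 22 of the 24 remained. HSPA5 differed most (1.54, SE 0.039, adjusted p = 9.92e-17), then HERPUD1 (1.497, SE 0.066, adjusted p = 1.19e-12), SEC24D (0.94, SE 0.101, adjusted p = 7.41e-07), HSP90B1 (0.94, SE 0.060, adjusted p = 4.52e-10), DNAJB9 (0.91, SE 0.080, adjusted p = 5.73e-08) and XBP1 (0.83, SE 0.087, adjusted p = 5.73e-07). Of the sensors, EIF2AK3 differed by 0.78 (adjusted p = 1.1e-05), ATF6 by 0.20 (adjusted p = 0.0353) and ATF6B by -0.21 (adjusted p = 0.014), while ERN1 did not pass (0.17, adjusted p = 0.252). For ATF6 the call was lost when any of 9 single libraries was left out, with an adjusted p of up to 0.086, and for ATF6B it was lost with length-scaled TPM. In the set with PTPRC reads and in the other set, where 1 treatment of each line is a single library, 22 and 13 of the 25 calls passed and all 25 kept their direction. ATF6B was at -0.28 (adjusted p = 0.0728) and -0.12 (adjusted p = 0.624) there. The genes with no call were MANF, CRELD2, DERL3, OS9, SYVN1, EDEM1, EDEM2, WFS1 and ERN1, so 5 of the 9 ERAD genes were among them.

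The genes were also divided by the arm best known for inducing them, into 11 ATF6-type targets (HSPA5, HSP90B1, HYOU1, HERPUD1, PDIA4, PDIA6, CRELD2, MANF, SDF2L1, SEL1L and CALR) and 15 XBP1-type targets (DNAJB9, DNAJB11, DNAJC3, EDEM1, EDEM2, DERL1, DERL2, DERL3, SEC24D, SEC61B, SSR1, SYVN1, HSPA13, OS9 and WFS1). This is a working division, since many targets answer to both. In p53-Y220C cells 10 of the ATF6-type genes rose, with a median log2 fold change of 0.69, and 13 of the XBP1-type genes, with a median of 0.34. The 4 sensors had a median of 0.10, with 1 higher and 1 lower. Among all genes tested 24.9% rose and 23.6% fell in these cells, so the sensor counts were near those shares. In p53-null cells 2 ATF6-type genes (PDIA6 and CRELD2) rose and 2 (HERPUD1 and HYOU1) fell, with a median of 0.02, and 9 XBP1-type genes rose and HSPA13 fell, with a median of 0.17. There 14.8% of all genes tested rose and 13.3% fell, so the ATF6-type counts were near those shares. The medians were thus ordered one way in p53-Y220C cells and the other way in p53-null cells, and no test compared the lists.

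**Figure D4:**
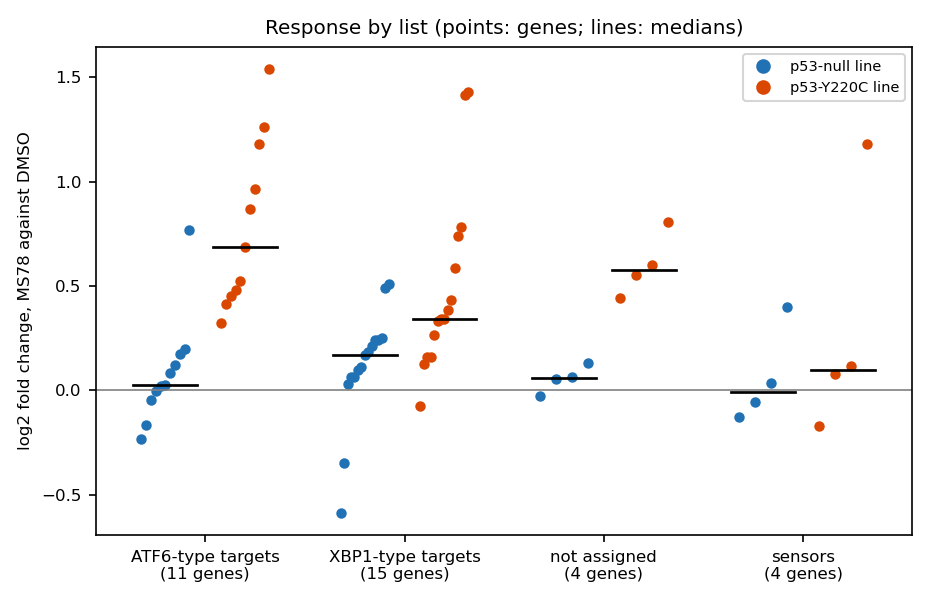
Log2 fold change under MS78 against DMSO (y axis) of the genes of each list (x axis) in p53-null and p53-Y220C cells; points are genes and lines are list medians. In p53-Y220C cells the median is 0.69 for ATF6-type targets, 0.34 for XBP1-type targets and 0.10 for sensors, and the highest sensor point is EIF2AK3.

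Promoter windows from RefSeq (GRCh38.p14, 250 bases before to 50 after the annotated start) were found for 30 of the 34 genes and searched on both strands for 3 motifs known from ER stress promoters. These were the ER stress response element ERSE (CCAAT, any 9 bases, CCACG), its variant ERSE-II (ATTGG, any 1 base, CCACG) and the unfolded protein response element UPRE (TGACGTGG). ERSE was in 7 members (HSPA5, HSP90B1, PDIA6, CALR, CANX, CRELD2 and XBP1) and ERSE-II in 3 others (SDF2L1, HERPUD1 and HYOU1), so 33.3% of the 30 held either, against 0.161% of the 27305 genes in the table. The motifs are known from ER stress promoters and the members were listed for such roles. The higher share is therefore not independent of how the genes were chosen. UPRE was in HYOU1 alone (3.33%, against 0.927%), where it overlaps an ERSE-II on the opposite strand. The windows below belong to the members with the largest responses among the 10 (HSPA5 and HERPUD1), to XBP1, to HYOU1, which holds a pair of ERSE-II, and to CRELD2, which had the smallest response. Capitals mark ERSE or ERSE-II, which in CRELD2 and HYOU1 read on the opposite strand.
HSPA5 (chr9:125241373-125241427, minus strand): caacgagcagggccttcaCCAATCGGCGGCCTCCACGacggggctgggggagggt
HERPUD1 (chr16:56932007-56932047, plus strand): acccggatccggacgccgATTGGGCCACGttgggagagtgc
XBP1 (chr22:28800598-28800639, minus strand): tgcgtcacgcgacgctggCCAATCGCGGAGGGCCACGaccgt
HYOU1 (chr11:119057256-119057408, minus strand): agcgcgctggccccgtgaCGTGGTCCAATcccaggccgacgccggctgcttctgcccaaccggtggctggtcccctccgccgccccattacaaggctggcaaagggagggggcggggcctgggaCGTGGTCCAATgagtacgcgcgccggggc
CRELD2 (chr22:49918536-49918590, plus strand): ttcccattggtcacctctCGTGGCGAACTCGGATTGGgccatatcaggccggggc

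No base of these stretches lies in an annotated exon of GENCODE 29. Positions are counted from the RefSeq start, and the CRELD2 stretch lies inside the gene as GENCODE gives it, which starts at 49918167. The HSPA5 motif lies 66 to 48 bases before the start, that of XBP1 52 to 34 and that of HERPUD1 117 to 107. All 10 genes with ERSE or ERSE-II rose in p53-Y220C cells, from CRELD2 at 0.32 to HSPA5 at 1.54, with a median of 0.75. Of the 20 genes with neither, 15 rose and ATF6B fell, with a median of 0.36, and DNAJB9, without a motif in its window, rose by 1.41. Among all genes tested 24.9% rose and 23.6% fell in these cells. In p53-null cells the medians were 0.05 and 0.08. A match to these letters is a description and does not show that a factor binds there.

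Under DMSO the lines already differed in 23 of the 34 genes, 7 of them higher and 16 lower in p53-Y220C cells, where 24.7% of all genes tested were higher and 25.5% lower. All 4 disulfide isomerases were lower, whereas HYOU1, CANX, SEL1L, SYVN1, EDEM1, ERN1 and ATF6 were higher. CRELD2 was at 30.8, 27.0, 28.1 and 26.02 CPM in Null DMSO and at 14.7, 14.0, 15.3 and 13.9 CPM in Y220C DMSO. It was lower in every Y220C library, 1.93-fold (log2 -0.95, SE 0.061, adjusted p = 9.42e-11). PDIA4 was at 280.2, 277, 292 and 268 CPM against 152, 160.3, 156 and 152 CPM, also apart (1.80-fold lower, log2 -0.85, SE 0.034, adjusted p = 6.3e-14). CALR was at 941, 932, 948 and 859 CPM against 582, 593, 541 and 519.5 CPM, without overlap (1.65-fold lower, log2 -0.72, SE 0.045, adjusted p = 6.87e-11). In these 3 genes MS78 raised the p53-Y220C line, and CALR then stood at 872 to 911 CPM, within the 859 to 948 CPM of the vehicle-treated p53-null line, while PDIA4 (211 to 221 CPM) and CRELD2 (17.9 to 18.2 CPM) stayed below the ranges of that line.

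SDF2L1 was at 34.5, 32.1, 27.3 and 26.4 CPM in Null DMSO and 21.6, 22.4, 16.3 and 15.95 CPM in Y220C DMSO (log2 -0.66, SE 0.108, adjusted p = 3.75e-05). PDIA6 was at 509.5, 516, 529 and 498 CPM and at 358, 368, 328 and 310.3 CPM (log2 -0.59, SE 0.043, adjusted p = 7.54e-10). HSP90B1 was at 815, 788, 905 and 815 CPM and at 669, 643, 636 and 638 CPM (log2 -0.36, SE 0.042, adjusted p = 5.22e-07). In all 3 the p53-Y220C libraries lay below the p53-null ones, whereas HSPA5, from the same list of targets, did not pass the test (log2 0.04, adjusted p = 0.261). Among the genes that were higher, ERN1 stood at 20.01, 19.3, 20.3 and 21.5 CPM against 13.6, 13.9, 15.4 and 14.0 CPM in Null DMSO (1.43-fold, log2 0.51, SE 0.076, adjusted p = 1.07e-05). SEL1L stood at 193, 175, 196 and 207 CPM against 133, 136, 149.6 and 142 CPM (1.38-fold, log2 0.47, SE 0.049, adjusted p = 1.45e-07). The levels did not overlap in either gene. HYOU1 was higher by log2 0.40 (255, 262, 249 and 246 CPM against 198, 201, 191 and 179 CPM), CANX by 0.30 (893, 879.6, 931 and 916 CPM against 731, 719.7, 751 and 733 CPM) and ATF6 by 0.30 (67.4 to 75.2 CPM against 54.1 to 62.1 CPM). EDEM1 was higher by 0.29 (20.8, 20.8, 21.1 and 23.9 CPM against 17.98, 16.9, 17.5 and 18.4 CPM), and none of these ranges overlapped. XBP1 and ATF6B were lower, by -0.29 and -0.24. The ATF6B levels did not overlap, whereas the highest XBP1 level in Y220C DMSO lay above the lowest in Null DMSO. EIF2AK3 did not pass the test. In the 6 libraries without PTPRC reads, 3 of each line, 21 of the 23 calls passed and HERPUD1 and OS9 did not. All 23 differences had the same direction there and between the single libraries with PTPRC reads.

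**Figure D5:**
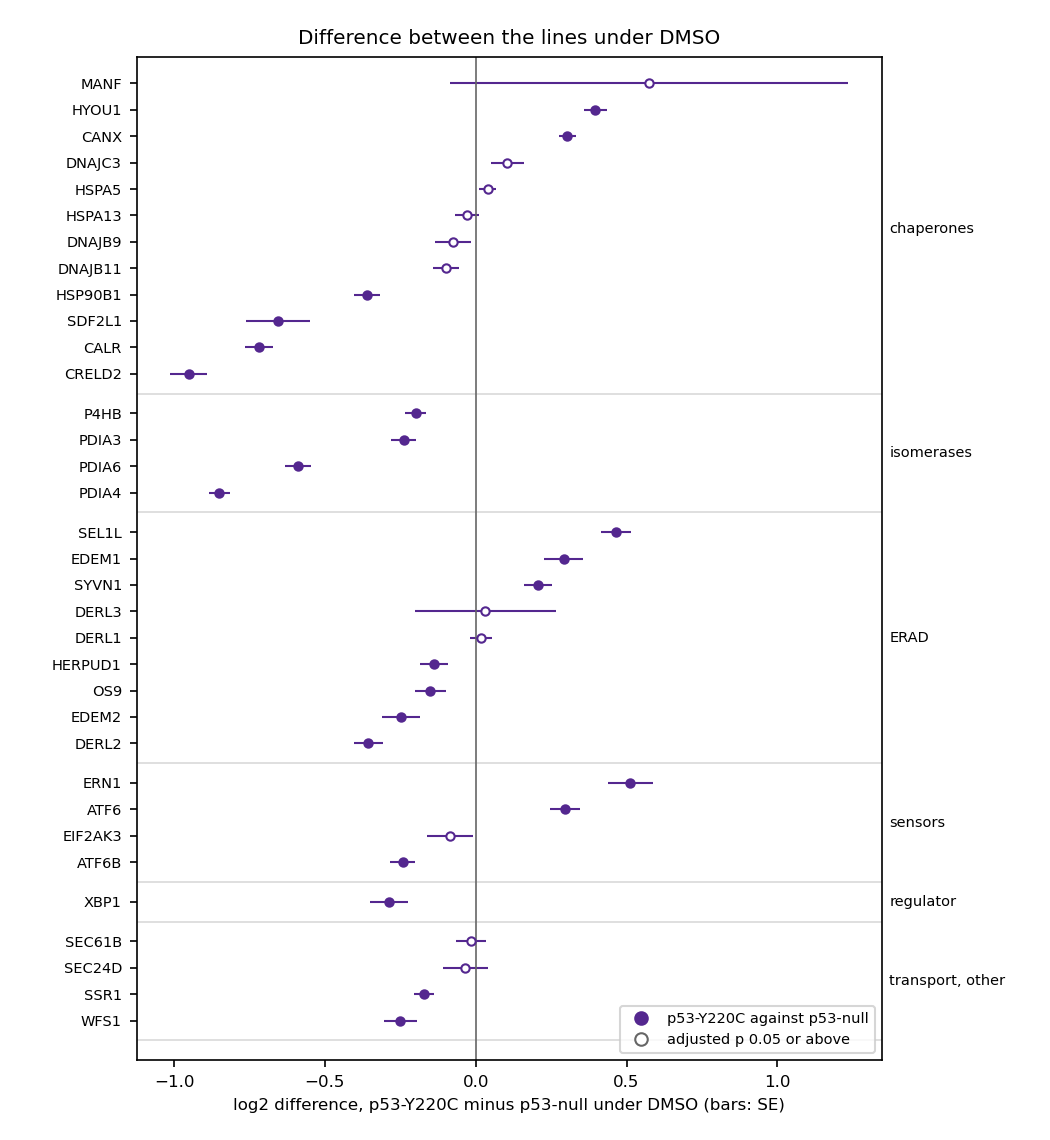
Log2 difference between p53-Y220C and p53-null cells under DMSO (x axis; bars are SE) for the 34 genes (y axis) grouped by role; filled points had an adjusted p under 0.05, n = 4 libraries per group. The 4 disulfide isomerases lie to the left of zero, and the sensors lie on both sides, with ERN1 at 0.51 and ATF6B at -0.24.

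Per unit of length, the 34 genes covered a wide range of levels. In Y220C DMSO the most abundant was CALR at 432 ± 21.4 TPM (abundance per unit of transcript length, SD, n = 4), then HSPA5 at 318 ± 9.60 and HSP90B1 at 311 ± 8.09, and these last 2 did not differ beyond their spread. Under MS78 HSPA5 came first at 895 ± 22.7 TPM, above CALR at 675 ± 28.1 and HSP90B1 at 587 ± 33.7. In p53-null cells CALR came first under both DMSO (732 ± 31.2 TPM) and MS78 (761 ± 41.3). The sensors were among the less abundant members except ATF6B: in Y220C DMSO they stood at 96.4 ± 5.56 (ATF6B), 11.8 ± 0.711 (ATF6), 5.25 ± 0.496 (ERN1) and 3.38 ± 0.523 TPM (EIF2AK3). The lowest in that group were DERL3 at 2.37 ± 0.422 and MANF at 1.33 ± 1.20 TPM.

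Other genes of the same pathways were followed in 5 further lists, also chosen with earlier results of these data known. Over all genes tested, 24.9% rose and 23.6% fell in p53-Y220C cells, and 14.8% rose and 13.3% fell in p53-null cells. By the interaction test 14.4% responded more positively in p53-Y220C cells. In the list of the PERK arm and the integrated stress response, 8 of 10 genes fell in p53-null cells and none rose, whereas in p53-Y220C cells 5 rose and 3 (CHAC1, ASNS and PSAT1) fell; all 10 responded more positively in p53-Y220C cells by the interaction test. ATF3, a stress-induced transcription factor, was at 10.0, 7.58, 9.58 and 9.33 CPM in Y220C DMSO and at 46.9, 44.5, 46.6 and 41.5 CPM in Y220C MS78 (log2 2.29, SE 0.087, adjusted p = 1.12e-14). PPP1R15A (GADD34, which reverses the PERK-driven block of translation) and DDIT3 (CHOP) rose by log2 1.63 and 1.09. Both lay apart from their controls, at 149 to 164 CPM against 47.4 to 52.5 CPM and at 153 to 173 CPM against 70.9 to 81.5 CPM. In p53-null cells DDIT3 fell by 0.69 on the log2 scale, and the largest decreases of the list were those of ASNS (asparagine synthetase, -1.13), CHAC1 (a glutathione-degrading enzyme, -1.08) and PSAT1 (serine synthesis, -0.97). EIF2AK3, the sensor of this arm, rose in both lines.

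Of 17 further genes for folding, oxidation and glycan handling, 14 rose and none fell in p53-Y220C cells, led by FKBP14 (a prolyl isomerase of the ER, log2 0.84), TXNDC11 (0.79) and ERP44 (a thiol-dependent retention factor, 0.76), whereas in p53-null cells 6 rose and 2 fell. Of 14 further ERAD genes, 11 rose and none fell in p53-Y220C cells, with SELENOS at 0.84 and FAF2 at 0.53, against 6 and 0 in p53-null cells. The list for the translocon, signal recognition and vesicle transport, with 20 genes, had 17 higher and SSR4 lower in p53-Y220C cells, led by KDELR3, a receptor that returns ER proteins from the Golgi (1.05), SEC24A (0.96) and SEC31A (0.86). In p53-null cells 8 of these rose and SEC63 fell. Among 11 genes that process or partner the sensors 5 rose and 2 fell in p53-Y220C cells, with a median log2 fold change of 0.01. In p53-null cells 2 rose and 3 fell, and the NF-Y subunit gene NFYB was lowest (-0.41). None of these counts was tested against the shares over all genes. Those were 24.9% higher and 23.6% lower in p53-Y220C cells, and 14.8% and 13.3% in p53-null cells.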

How the data were processed

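RNA abundance was measured by poly(A) RNA-seq in 16 libraries, with groups taken from the labels. The deposited tables hold estimated counts per transcript, which the authors' quantifier divided among transcripts that share sequence. They also hold TPM and the lengths and effective lengths of transcripts, per the file headers. FastQC 0.11.8 and hg38 are named in the submitters' processing notes. The quantifier's version, its annotation and whether it used strand were not given in the sources used here.

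Estimated counts were summed per gene and rounded to whole numbers. GENCODE 29 paired 97.82% of transcripts with a gene, and the rest held 0.278% to 0.325% of reads. CPM are counts per 1e6 of the TMM-scaled total. After edgeR's filter on low counts, edgeR 4.0.16 (R 4.3.3, limma 3.58.1) fitted the 4 groups together, with quasi-likelihood tests and Benjamini-Hochberg adjustment over all genes tested, and a gene was called at an adjusted p under 0.05. The fit was also run on simulated data with independent draws and the same spread for every gene. Those data held no leukocyte reads tied to treatment, so that run does not test the fit in such a setting. Shares of spliced XBP1 were compared by exact two-sided permutation tests over libraries. Python 3.11.15 with pandas 2.3.3 was used for sums and motifs.

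The members and lists were chosen with earlier results of these data known. All 34 members could be named. Library levels were given for up to 6 rising and 6 falling members per comparison with the largest change and no overlap of groups. The 4 sensors and XBP1 have full values for MS78 in p53-Y220C cells and fewer values in some other comparisons. Up to 3 genes were named per further list. Alternatives were DESeq2 1.42.0, upper-quartile scaling, other filters, length-scaled TPM, only the groups compared, a replicate block, a term for PTPRC reads, the 2 sets of libraries apart, and each library left out. Replicates of a group differed by more than sampling noise, and no library was counted as repeated. Protein sequences were not used here. One check of the labels is not reported here.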

Additional observations from a re-analysis of the deposited data

Results flagged for a closer look

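Among 140 groups of 4 values examined, 9 held a library set apart from the other 3, where chance flags about 1 in 20 groups. HYOU1 was at 372 CPM in Y220C MS78 replicate 4, against 361 to 362 in the others. CALR was at 859 CPM in Null DMSO replicate 4 (others 932 to 948) and at 872 CPM in Y220C MS78 replicate 2 (905 to 911). SYVN1 was at 40.45 CPM in Y220C MS78 replicate 2 (38.3 to 38.65), and EDEM1 at 23.9 CPM in Y220C DMSO replicate 4 (20.8 to 21.1). DERL2 was at 43.8 CPM in Null MS78 replicate 4 (40.7 to 41.2), XBP1 at 73.1 CPM in the same library (64.2 to 65.1) and ERN1 at 24.9 CPM in Y220C MS78 replicate 4 (20.9 to 21.4). The spliced share of XBP1 was 0.277% in Null MS78 replicate 1 (1.26 to 1.46%).

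The response to MS78 differed between the lines, by the interaction test in edgeR, for 25 genes. The log2 fold change in p53-Y220C cells minus that in p53-null cells was 1.54 for HSPA5, 1.497 for HERPUD1, 0.94 for SEC24D, 0.94 for HSP90B1, 0.91 for DNAJB9 and 0.83 for XBP1. It was 0.78 for EIF2AK3, 0.69 for HYOU1, 0.68 for DNAJB11, 0.67 for SDF2L1, 0.61 for HSPA13, 0.60 for CALR, 0.54 for DNAJC3, 0.53 for PDIA4 and 0.50 for P4HB. Smaller differences were 0.47 for CANX, 0.43 for SEL1L, 0.38 for PDIA3, 0.34 for DERL1, 0.29 for PDIA6, 0.27 for SEC61B, 0.24 for SSR1, 0.22 for DERL2 and 0.20 for ATF6. ATF6B differed by -0.21.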

How the results depend on the processing

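No called member changed direction under any alternative, and DESeq2 lost none of the calls. With length-scaled TPM, 5 members were higher under MS78 in p53-null cells in place of 13 (2839 genes of all called in place of 4402), 0 were lower in p53-Y220C cells in place of 1, and 0 had a lower interaction in place of 1 (2745 genes called in place of 4197). Within the libraries with PTPRC reads, 4 members were higher in p53-null cells (2346 genes), 0 had a lower interaction (1870 genes), and 4 were higher and 10 lower between lines under DMSO in place of 7 and 16 (3817 genes in place of 7875). Within those without, 2 were higher and 1 lower in p53-null cells (1070 genes), 0 were lower in p53-Y220C cells (3490 genes in place of 7611), and the interaction was higher for 13 in place of 24 and lower for 0 (411 genes). Every MS78 test within these sets has an arm of 1 library, and the lines with PTPRC reads are 1 library against 1, so p-values borrow the spread of other groups. The zeros are edgeR calls and concern ATF6B. Leaving out each library gave 9 to 12 members higher and 3 to 4 lower in p53-null cells (3688 to 4054 genes), 26 to 29 higher and 1 to 1 lower in p53-Y220C cells (6966 to 7334), 23 to 25 higher and 1 to 1 lower for the interaction (3685 to 4250), and 7 to 8 higher and 15 to 17 lower between lines (7270 to 7798). The spliced share of XBP1 then differed by -1.15 to -0.756 percentage points in p53-null cells, 18.4 to 21.3 in p53-Y220C cells and 0.165 to 2.71 between lines, the lowest without Y220C DMSO replicate 4. From TPM the differences were -1.30 and 20.2, without PTPRC reads -1.76 and 15.9, and between lines with PTPRC reads -0.478, a reversal between single libraries. Deviations of same-numbered libraries correlated at -0.502 to -0.042 between treatments within a line, -0.057 to 0.452 between lines under DMSO and 0.15 to 0.531 between lines under MS78. Between lines under MS78, groups that meet only in the interaction, every pair was above 0.1. In none of the 3 direct comparisons (MS78 in each line and the lines under DMSO) was every pair above 0.1. Numbers were therefore not taken to pair samples in those 3, and the main fit of the interaction held no replicate block either. With the replicate block 11 members were higher and 3 lower in p53-null cells, 28 and 1 in p53-Y220C cells, 25 and 1 for the interaction and 7 and 16 between lines, and the spliced share differed by -1.03 and 19.6 percentage points (exact sign-flip permutation p = 0.125 in both, the smallest possible). A term for PTPRC reads gave 10 members higher and 3 lower in p53-null cells, where PDIA6, CRELD2 and EDEM1 lost the call. It gave 28 and 1 in p53-Y220C cells, 24 and 1 for the interaction and 7 and 16 between lines. MANF, DERL3 and spliced XBP1 outside Y220C MS78 rest on few reads. Whether the low MANF reads reflect its level or how reads were assigned to transcripts was not tested.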
